A study of Mus musculus with 4 samples.

Results

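In small bowel lamina propria (the loose tissue beneath the epithelium), a population of CD4 T cells was defined by high Ccl5 RNA without the memory and cytotoxic genes Eomes and Gzmk. A cell barcode was counted as a member if it held at least 3 UMIs (unique molecular identifiers, each a counted RNA molecule) of Ccl5, no UMI of Foxp3, Eomes or Gzmk, and fewer than 3 UMIs of Il17a, of Il22 and of Penk. Barcodes entered if 500 or more genes were detected and no more than 10% of UMIs were mitochondrial. In recipients 1, 2 and 4 this gave 1949 members of 19960 barcodes, namely 937 of 9301, 944 of 9244 and 68 of 1415, or 10.1%, 10.2% and 4.81%. All 4 libraries together held 23586 such barcodes.

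The cells came from irradiated Rag1-/- mice, whose own lymphoid development is blocked, given 10000000 bone marrow cells in a 50:50 mixture of marrow from CD45.1 wild type and from CD45.2 Bcl3-/- donors and examined 16 weeks later. Every recipient thus carries both genotypes, and every library is a single animal. The donor of a cell was read from the antibody tags for the 2 CD45 alleles, with at least 10 tag UMIs and a ratio of at least 4. By the labels the Bcl3-/- genotype belongs to the CD45.2 donor marrow, and so to all blood cells that grow from it, not to T cells alone. The 2 donors also differ in the strain background that the CD45.1 allele carries with it. Recipient 3, whose barcodes carry mixed RNA, was left out.

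T helper 1 (Th1) cells are the CD4 T cells that follow the transcription factor T-bet (Tbx21), respond to interleukin-12 and interleukin-18 and release interferon-gamma. Their chemokines CCL5 and XCL1 attract other lymphocytes and cross-presenting dendritic cells, and some Th1 cells of the gut carry granzymes, NK-type receptors and the collagen-binding integrin CD49a (Itga1), a protein of tissue-resident lymphocytes. BCL3 is a nuclear protein of the IkB family that acts on NF-kB dimers.

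Cd4 RNA was held by 88.2%, 85.2% and 85.3% of members in recipients 1, 2 and 4, against 85.2%, 84.4% and 79.7% of the other barcodes. RNA of Cd8a or Cd8b1 was held by 2.77%, 1.69% and 16.2% of members against 2.46%, 2.99% and 2.67% of the others, so that members of recipient 4 stood apart. Markers of NK cells and innate lymphoid cells summed to 5.72, 10.45 and 217 CPM (UMIs per 1000000 UMIs of the summed cells), with Ncr1 at 0 in all 3 recipients. Gamma-delta T cell genes, 7 in the list, summed to 451, 438 and 1376 CPM in members, against 232, 266 and 390 CPM in the other barcodes, with Sox13 at 0 in the members of all 3. In the test of members against others given below, 3 of 5 gamma-delta genes rose (Trdc, Tcrg-C2 and Tcrg-C4) and 0 fell. With every barcode left out that held a UMI of Cd8a, Cd8b1, Trdc, Ncr1, Tyrobp or Fcer1g, that test called 2327 genes, 2009 of them among the 2066 it called with these barcodes. Median depth was 6445, 6161 and 6018.5 UMIs in members and 5870.5, 5733 and 5823 in the other barcodes. Up to 33 barcode sequences were shared between any pair of libraries and 0 among members. Recipient 4 stood apart in Cd8a and NK-type genes and had few members, so results are also given without it where that matters.

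Because XCL1, the interleukin-12 receptor chain IL12RB2 and the NK-type receptor CD160 are among the genes that rose most in members, the 250 bases before the start of each gene are shown, read from RefSeq on GRCm38.p6. Capitals mark matches to the T-box core TCACAC, the core letters bound by T-bet and Eomes, on either strand (GTGTGA on the other). Each lies on the minus strand of the genome and is written 5′ to 3′ along the gene.
Xcl1, chr1:164935523-164935772: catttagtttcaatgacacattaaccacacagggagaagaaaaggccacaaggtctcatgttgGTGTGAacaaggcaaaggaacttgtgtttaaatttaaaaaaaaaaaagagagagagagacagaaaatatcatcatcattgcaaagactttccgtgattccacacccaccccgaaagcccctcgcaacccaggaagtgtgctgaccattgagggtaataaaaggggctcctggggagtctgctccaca
Il12rb2, chr6:67376189-67376438: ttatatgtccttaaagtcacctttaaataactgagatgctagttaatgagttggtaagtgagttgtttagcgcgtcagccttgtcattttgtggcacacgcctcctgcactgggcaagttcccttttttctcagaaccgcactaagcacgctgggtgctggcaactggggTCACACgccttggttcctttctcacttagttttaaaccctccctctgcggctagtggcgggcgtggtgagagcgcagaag
Cd160, chr3:96829352-96829601: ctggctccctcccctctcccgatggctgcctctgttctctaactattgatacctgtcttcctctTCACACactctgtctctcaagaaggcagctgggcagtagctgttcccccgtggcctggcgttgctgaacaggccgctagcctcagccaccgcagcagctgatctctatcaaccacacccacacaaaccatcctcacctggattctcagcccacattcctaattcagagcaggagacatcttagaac
The match lies 187 to 182 bases before the start in Xcl1, 80 to 75 in Il12rb2 and 186 to 181 in Cd160. Of the 10 genes that rose most in members, 9 had an entry and 4 of these held the T-box letters (Cd160, Il12rb2, Slamf7 and Xcl1), while 12.3% of all 32851 promoter windows of that length held them. Cd160 has a pair of windows, both with a match, and 1 of them is shown. The kappaB letters, GGG and CC with any 5 bases between them, searched on both strands likewise, were held by 4 of the same 9 genes (Bcl2, Cd160, Dapk2 and Fasl) and by 45.8% of all windows. A gene was counted if any of its windows held the letters, while the background is a share of single windows. The counts of genes and the shares of windows are therefore not alike measures. A match is a run of letters and not a measured binding site.

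The first question was what else sets the members apart from the other CD4 T cells of the same animal. Counts were summed per recipient over members and over all 18011 other barcodes, and compared within recipients. Of 10845 genes tested, 913 rose in members and 1153 fell (edgeR adjusted p under 0.05), which is 19.1% of the genes, 8.42% upward and 10.6% downward. Every count of a gene list below is read against these shares. The 7 genes of the definition were not tested. Ccl5 itself, as a result of the definition, was at 3134, 2321 and 4569 CPM in members of recipients 1, 2 and 4 and at 273, 271 and 173 CPM in the others, with a median of 10, 9 and 8.5 UMIs per member and a highest value of 926.

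Xcl1, the chemokine lymphotactin, was at 302, 200 and 36.7 CPM in members of recipients 1, 2 and 4, and at 27.9, 20.7 and 12.8 CPM in the other cells. Members were above the others in each animal, and recipient 4 was low in both. The rise of Xcl1 on the log2 scale was 3.27 (SE 0.31, edgeR adjusted p = 0.0320), a call lost without the filter on low counts (3.24, adjusted p = 0.0555) and without the replicate block (3.28, adjusted p = 0.0705). Il12rb2, the inducible chain of the interleukin-12 receptor, stood at 324, 239 and 75.8 CPM against 53.8, 52.8 and 11.9 CPM. Its rise was 2.44 (SE 0.09, edgeR adjusted p = 9.61e-11), lost without the replicate block (2.53, adjusted p = 0.171), and again recipient 4 had the lowest level in both arms. Cd160 was at 164, 132 and 171 CPM in members and 26.2, 34.2 and 35.1 CPM in the others, with no overlap (2.32, SE 0.17, edgeR adjusted p = 0.000490). Without recipient 4 its difference was 2.34 with adjusted p = 0.195. Itga1 did not pass, although its groups did not overlap: it was at 198, 166 and 200 CPM in members against 27.5, 28.3 and 10.49 CPM (2.92, SE 0.37, edgeR adjusted p = 0.0563). Gzmb, the protease granzyme B, did not pass either, with 1211, 705 and 748 CPM in members and 577, 570 and 215 CPM in the other cells (1.03, SE 0.41, edgeR adjusted p = 0.302). The groups lay closest in recipient 2.

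**Figure D1:**
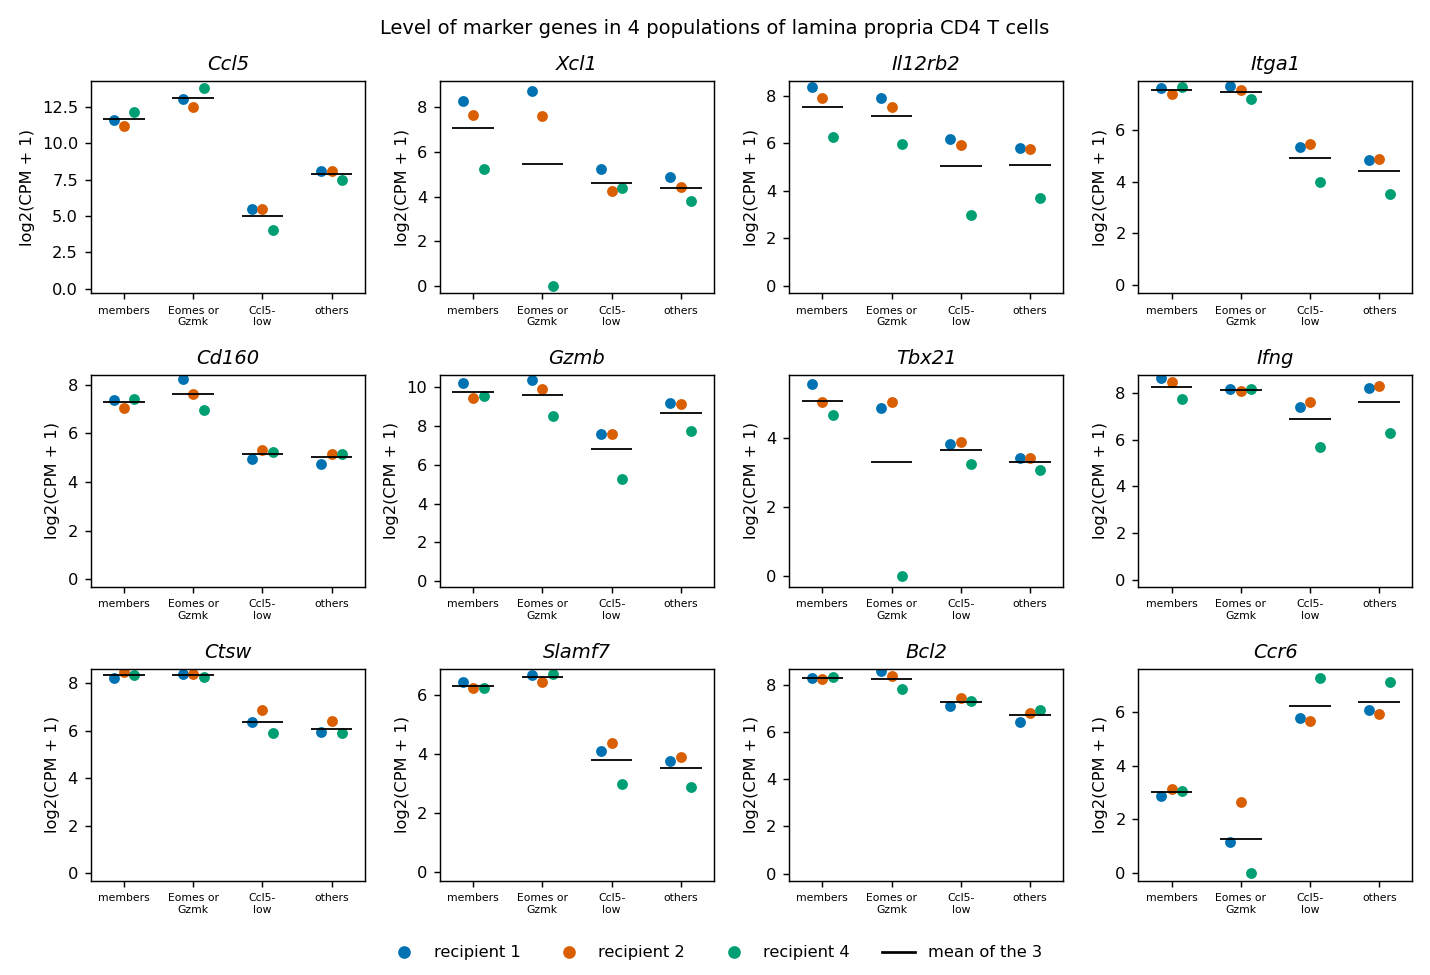
Level of 12 genes in members, in Ccl5-high cells with Eomes or Gzmk, in Ccl5-low cells of the same gate and in all other cells; the y axis is log2(CPM + 1), each point is a recipient and each line the mean of the 3. Xcl1, Il12rb2, Cd160 and Slamf7 lie higher in members than in the other cells of every recipient, and Ccr6 lies lower; the 9 cells with Eomes or Gzmk of recipient 4 are listed at 0 for Xcl1, Tbx21 and Ccr6.

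Among the transcription factors and cytokine receptors of Th1 cells, 8 of 17 tested genes rose and 1 fell, with a median log2 difference of 0.18 against 0.002 over all genes. Tbx21, the gene of T-bet, was at 46.4, 32.3 and 24.4 CPM in members against 9.90, 9.90 and 7.46 CPM (2.002, SE 0.13, edgeR adjusted p = 4.35e-10). Runx3, which works with T-bet, rose by 0.94 (SE 0.13), and Cxcr3, the Th1 homing receptor, by 1.03 (SE 0.07). Id2, a partner-blocking regulator of effector lymphocytes, rose by 0.43 (SE 0.11). Of the interleukin-18 receptor, the chain Il18rap was at 55.1, 64.4 and 51.3 CPM against 42.9, 38.5 and 34.6 CPM and passed (0.59, SE 0.09), but not without recipient 2 (0.45, adjusted p = 0.149). Il18r1, its partner chain, was at 244, 277 and 288 CPM in members and 247, 244 and 286 CPM in the others and did not pass (0.09, SE 0.07). Zeb2, a factor of terminally differentiated effector cells, fell by 1.57 on the log2 scale (SE 0.24).

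Of 11 effector cytokine genes 5 rose and 3 fell. Fasl, the death ligand, was at 243, 207 and 154 CPM in members against 67.6, 76.6 and 32.2 CPM (1.75, SE 0.14, edgeR adjusted p = 0.000453). Tnfsf10, the death ligand TRAIL, rose by 1.26 (SE 0.10) and Tnfsf14, the costimulatory ligand LIGHT, by 0.63 (SE 0.12). Ifng was at 397, 353 and 213 CPM against 295, 317 and 76.6 CPM and did not pass (0.54, SE 0.32, edgeR adjusted p = 0.450). A UMI of Ifng was found in 55.9%, 52.3% and 42.6% of members. Il10, the anti-inflammatory cytokine, was lower in members, at 47.0, 46.7 and 24.4 CPM against 323, 326 and 44.7 CPM (-2.70, SE 0.19). The others include every kept cell with Foxp3 or with at least 3 UMIs of Il17a or Il22, which the definition bars from the members. The part of these cells in the Il10 difference was not tested. Ltb, a lymphotoxin chain, fell by 0.53 on the log2 scale (SE 0.09). The chemokine Ccl4 lay at 239, 170 and 24.4 CPM against 19.2, 23.4 and 13.9 CPM and did not pass (3.13, SE 0.48, edgeR adjusted p = 0.0829).

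Of 13 granule genes 6 rose and 1 fell, with a median of 1.17. Ctsw, a protease of cytotoxic cells, was at 297, 357 and 323 CPM in members against 60.0, 83.1 and 58.4 CPM (2.29, SE 0.07, edgeR adjusted p = 2.47e-15). Prf1, the pore-forming perforin, was low but higher in members, at 40.8, 24.5 and 19.5 CPM against 8.92, 5.43 and 3.03 CPM (2.24, SE 0.13). Serpinb9 and Serpinb6b, inhibitors that protect cells from granule proteases, rose by 1.72 (SE 0.19) and 1.26 (SE 0.09). Nkg7, a granule membrane protein, was at 727, 630 and 784 CPM against 201, 207 and 97.8 CPM and did not pass (2.10, SE 0.40, edgeR adjusted p = 0.113). Gzma was at 977, 433 and 5080 CPM in members and 354, 621 and 273 CPM in the others, so that recipients differed in direction.

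NK-type receptors and adaptors had 4 of 10 genes up and 1 down. Slamf7, a self-ligand receptor of cytotoxic lymphocytes, was at 85.8, 74.5 and 73.3 CPM in members against 12.6, 13.8 and 6.32 CPM (2.69, SE 0.12, edgeR adjusted p = 2.02e-09). Cd226, an activating receptor, rose by 0.75 (SE 0.07). Klrd1, the CD94 chain, was at 16.0, 7.84 and 83.1 CPM in members and 1.88, 1.31 and 0.758 CPM in the others and did not pass (3.53, SE 0.92). Outside the lists, Dapk2, a calcium-dependent kinase, was at 91.9, 70.1 and 117 CPM against 10.8, 11.3 and 6.19 CPM (3.02, SE 0.27, edgeR adjusted p = 0.0103). Ifitm2, an interferon-inducible membrane protein, rose by 2.30 (SE 0.25).

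Genes of gut residence went in both directions, 5 of 17 up and 4 down. P2rx7, an ATP receptor of resident T cells, rose by 0.48 (SE 0.07), the lipid receptors Gpr55 by 0.90 (SE 0.10) and Gpr34 by 0.76 (SE 0.10). Zfp683, the gene of the residency factor Hobit, was scarce, at 2.70, 1.47 and 7.33 CPM in members against 0.301, 0.2495 and 0.126 CPM (3.16, SE 0.52). Itga4, the chain of the gut-homing integrin, fell by 0.83 on the log2 scale (SE 0.07), from 301, 273 and 444 CPM in the others to 170, 160 and 210 CPM in members. Ccr9, the small intestinal homing receptor, was at 522, 473 and 435 CPM in members and at 675, 490 and 479 CPM in the others and did not pass. Genes of naive and recirculating cells were lower, 8 of 10 down and 1 up, with a median of -0.91. Ccr7, the lymph node homing receptor, was at 12.2, 11.3 and 12.2 CPM against 67.0, 52.2 and 15.8 CPM (-2.25, SE 0.14), and S1pr1, the tissue exit receptor, at 19.1, 13.6 and 26.9 CPM against 55.04, 39.1 and 66.6 CPM (-1.48, SE 0.11). Il7r, the interleukin-7 receptor that memory cells keep, was the gene of this list that rose (0.78, SE 0.11), at 953, 1019 and 1153 CPM against 455, 642 and 818 CPM.

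Survival genes moved in part: of 14 genes of the BCL2 family and cell death 2 rose and 2 fell. Bcl2, which keeps lymphocytes alive, was at 314, 309 and 327 CPM in members against 85.4, 111 and 122 CPM, with a narrow spread (1.65, SE 0.09, edgeR adjusted p = 5.87e-08). Its antagonist Bcl2l11 (BIM) rose as well, by 0.87 (SE 0.08). Of 11 coinhibitory receptors 5 fell and 1 rose. Lag3 was at 14.0, 15.7 and 53.8 CPM against 94.8, 94.6 and 90.4 CPM (-2.45, SE 0.35), and Tigit fell by 1.31 on the log2 scale (SE 0.16). The part of the Foxp3-positive cells, all of them among the others by definition, in these falls was not tested. Cd96 was the gene that rose (0.61, SE 0.07). In the NF-kB list 5 of 15 fell and 0 rose. Nfkb1, which encodes the p50 precursor, was at 157, 163 and 144 CPM against 298, 291 and 248 CPM (-0.84, SE 0.07), and Rel, another subunit, fell by 0.65 on the log2 scale (SE 0.08). Of 15 genes that respond to interferon-gamma 7 rose and 2 fell. The proteasome gene Psmb8 rose by 0.35 (SE 0.08), a call lost without recipient 1 (0.25, adjusted p = 0.220) and without recipient 2 (0.33, adjusted p = 0.118).

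Signature genes of the other helper types fell in part. Of 10 Th17 genes 5 fell and 0 rose, of 9 Treg genes 6 fell, of 8 follicular helper genes 6 fell and of 4 Th2 genes 3 fell. Since members have no Foxp3 and little Il17a and Il22 by definition, the Treg and Th17 counts are no independent evidence. Ccr6, a Th17 homing receptor, was at 6.19, 7.84 and 7.33 CPM against 67.4, 60.2 and 139 CPM (-3.22, SE 0.13). Tox2, a follicular helper factor, fell by 2.98 on the log2 scale (SE 0.13), and Cd83, an activation marker, from 170, 202 and 103 CPM in the others to 20.2, 26.5 and 2.44 CPM in members. Of 10 proliferation genes 0 rose and 1 fell (Hmgb2), and of 10 genes of stress and tissue dissociation 3 rose (the heat shock genes Hspa1b, Dnajb1 and Hsph1) and 2 fell (Dusp1 and Zfp36).

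These calls depended on how the spread was taken. DESeq2 called 1085 genes where edgeR called 2066, of which 1043 were the same genes, and edgeR called 815, 861 and 3379 genes without recipients 1, 2 and 4. In another run the definition was applied to counts thinned to 2000 UMIs per barcode. There it asked for at least 2 UMIs of Ccl5, with the other limits unchanged, and the unthinned counts of the cells so chosen were summed. It therefore changes which cells are members and is not a check of depth alone. In that run Il10 (-1.46, edgeR adjusted p = 0.143) and Il7r (0.61, adjusted p = 0.240) were no longer called. Of 123 called genes from the lists and the top ranks, 40 were called in every alternative run that gave them an adjusted p. Among these 40 were Tbx21, Slamf7, Ctsw, Prf1, Bcl2 and S1pr1, but not Xcl1, Il12rb2 or Cd160.

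A narrower question was which of these differences go with Ccl5 alone. Members were therefore set against the 8036 barcodes that met every other condition but held fewer than 3 Ccl5 UMIs, so that Treg and Th17 cells were kept out of both arms alike. Of 10628 genes, 694 rose in members and 851 fell, which is 14.5%, 6.53% upward and 8.01% downward. Among 17 Th1 regulators and receptors 11 rose and 1 fell, with a median of 0.55. Tbx21 was at 46.4, 32.3 and 24.4 CPM in members against 13.3, 14.0 and 8.53 CPM in the Ccl5-low cells (1.52, SE 0.13, edgeR adjusted p = 1.12e-06). Il12rb2 was again higher, at 71.3, 59.2 and 6.83 CPM in Ccl5-low cells (2.18, SE 0.15), and Slamf7 rose by 2.26 (SE 0.18).

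Among homing genes 7 of 15 rose and 3 fell. Itgae, the integrin chain CD103 that holds T cells at the epithelium, was at 96.2, 74.5 and 164 CPM against 19.9, 28.2 and 37.1 CPM (1.89, SE 0.21, edgeR adjusted p = 0.00527). Ccr9 rose by 0.49 (SE 0.07) and Cxcr6, a receptor of resident T cells, by 0.44 (SE 0.07). Naive and recirculating genes fell for 8 of 10, with a median of -1.61: S1pr1 was at 101, 69.4 and 90.4 CPM in Ccl5-low cells (-2.33, SE 0.11), and Tcf7, a factor of naive and stem-like cells, fell by 1.04 on the log2 scale (SE 0.09). Xcl1 (3.07, SE 0.43, edgeR adjusted p = 0.0817), Itga1 (2.32, SE 0.35, adjusted p = 0.0834), Gzmb (2.73, SE 0.64, adjusted p = 0.178) and Ifng (1.20, SE 0.25, adjusted p = 0.105) did not pass. Each of these 4 was nevertheless higher in members of all 3 animals. Cd8a rose by 6.49 (SE 0.62), from few cells: 13 members of recipient 1, 7 of recipient 2 and 10 of recipient 4 held it. With the definition applied to thinned counts, at 2 or more Ccl5 UMIs, the call was lost (5.13, edgeR adjusted p = 0.158). DESeq2 called 766 genes here, and leaving out recipient 1, 2 or 4 gave 653, 911 or 1612.

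Compared with their nearest relatives, the 249 Ccl5-high cells with a UMI of Eomes or Gzmk (125, 115 and 9 in recipients 1, 2 and 4), members differed in few genes: 135 of 7121 rose and 62 fell, or 2.77%, with 1.9% upward and 0.871% downward. The markers Xcl1, Itga1 and Gzmb did not pass between the 2, with log2 differences of -0.27 (SE 0.11), -0.10 (SE 0.12) and -0.20 (SE 0.09). Cd160 was lower in members, at 164 and 132 against 300.5 and 198 CPM in recipients 1 and 2, though at 171 against 123 CPM in recipient 4 (-0.72, SE 0.12, edgeR adjusted p = 1.54e-07). Il12rb2 was higher, at 324, 239 and 75.8 CPM against 240, 181 and 61.7 CPM (0.38, SE 0.12, edgeR adjusted p = 0.0387). Tbx21 did not pass (0.36, SE 0.25). Members were higher in genes that Th17-type lymphocytes also carry, 4 of 6 up and 0 down. Tmem176a, an ion channel gene, was at 123, 239 and 220 CPM in members against 20.3, 41.6 and 20.6 CPM (2.54, SE 0.19, edgeR adjusted p = 1.34e-37). Its neighbour Tmem176b rose by 2.25 (SE 0.15). Il18r1 was at 244, 277 and 288 CPM against 109, 139 and 20.6 CPM (1.10, SE 0.13, edgeR adjusted p = 1.09e-14), with no overlap. Capg, an actin-capping protein, rose by 1.76 (SE 0.18) and Tnfsf8, the ligand of CD30, by 1.58 (SE 0.21). In this comparison edgeR had 2 residual degrees of freedom and took the spread from all genes together. Its SEs and p-values, however small, therefore do not measure a gene's own spread between the animals. Without the replicate block 15 genes were called.

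Of 12 granule genes 3 were lower in members than in the cells with Eomes or Gzmk and 0 higher (median -0.12), of 15 homing genes 1 was lower and 4 higher, and of 7 naive and recirculation genes 0 were lower and 1 higher. Nkg7 was at 727, 630 and 784 CPM in members against 1123, 1015 and 1706 CPM (-0.75, SE 0.09, edgeR adjusted p = 1.17e-14). Itga4 was at 170, 160 and 210 CPM in members against 347, 386 and 637 CPM (-1.22, SE 0.10, edgeR adjusted p = 5.85e-28). Prf1 fell by 0.91 (SE 0.22), a call lost without recipient 2 (-0.74, adjusted p = 0.890). With only 9 such cells in recipient 4, DESeq2 called 21 genes, all of them also edgeR calls, and edgeR called 66, 36 and 307 genes without recipients 1, 2 and 4. Of 56 called genes from the lists and the top ranks, Itga4, Nkg7 and Rflnb were called in every alternative run that gave them an adjusted p.

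To compare shares of cells at equal depth, every barcode was thinned to 2000 UMIs, which 919 of 937, 932 of 944 and 66 of 68 members reached. A UMI of Xcl1 was then found in 30.1%, 17.9% and 6.06% of members of recipients 1, 2 and 4 (50.9%, 32.1% and 11.8% unthinned), against 3.07%, 1.66% and 0.591% of other cells. Itga1 was in 28.7%, 24.4% and 37.9% of members against 4.20%, 4.43% and 1.52% of other cells. Naive-type cells, which held RNA of Ccr7, Lef1 and S1pr1, served as a guide to free RNA. Whether the UMIs in them come from free RNA was not tested. Xcl1 was in 0.750%, 0% and 0% of these naive-type cells. Gzmb reached 43.1%, 32.0% and 18.2% of members and 8.25%, 2.17% and 4.76% of naive-type cells. Ifng reached 35.7% and 31.3% of members of recipients 1 and 2, against 3.75% and 2.17% of naive-type cells. At this depth 5.55%, 3.86% and 0% of members held a UMI of Ifng, Xcl1 and Gzmb together, and 29.1%, 42.5% and 57.6% held a UMI of none of the 3. Thinning lowers such shares, and a cell without a UMI may still express the gene.

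Along the Ccl5 level itself, from 3 to 5 UMIs up to over 20 UMIs per cell, the share of members with Nkg7 went from 49.2% to 81.9% in recipient 1 and from 49.8% to 75.7% in recipient 2. Gzmb went from 30.7% to 59.1% and from 15.7% to 53.0%, Gzma from 4.92% to 29.1% and from 5.34% to 22.3%, and Itgae from 6.15% to 24.0% and from 4.98% to 24.8%. Ifng stayed between 32.9% and 38.2% in recipient 1 and between 29.2% and 34.0% in recipient 2, without an order. Il7r went the other way, from 76.6% to 65.7% and from 75.8% to 66.3%. In recipient 4 the 17 members with over 20 Ccl5 UMIs held Cd8a in 35.3%, Gzma in 76.5% and Il7r in 11.8%, and the 19 with 3 to 5 UMIs held them in 0%, 10.5% and 84.2%. These bins hold 9 to 21 thinned cells each, so the order rests on few cells. At the lower edge of the definition, 116 members of recipient 1 with exactly 3 Ccl5 UMIs and 203 cells of the same gate with 2 had Xcl1 at 223 and 134 CPM, Itga1 at 170 and 114 CPM and Ifng at 411 and 302 CPM. In recipient 2, 134 and 219 such cells had Xcl1 at 99.4 and 30.3 CPM, Itga1 at 95.6 and 98.5 CPM and Ifng at 286 and 318 CPM.

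**Figure D2:**
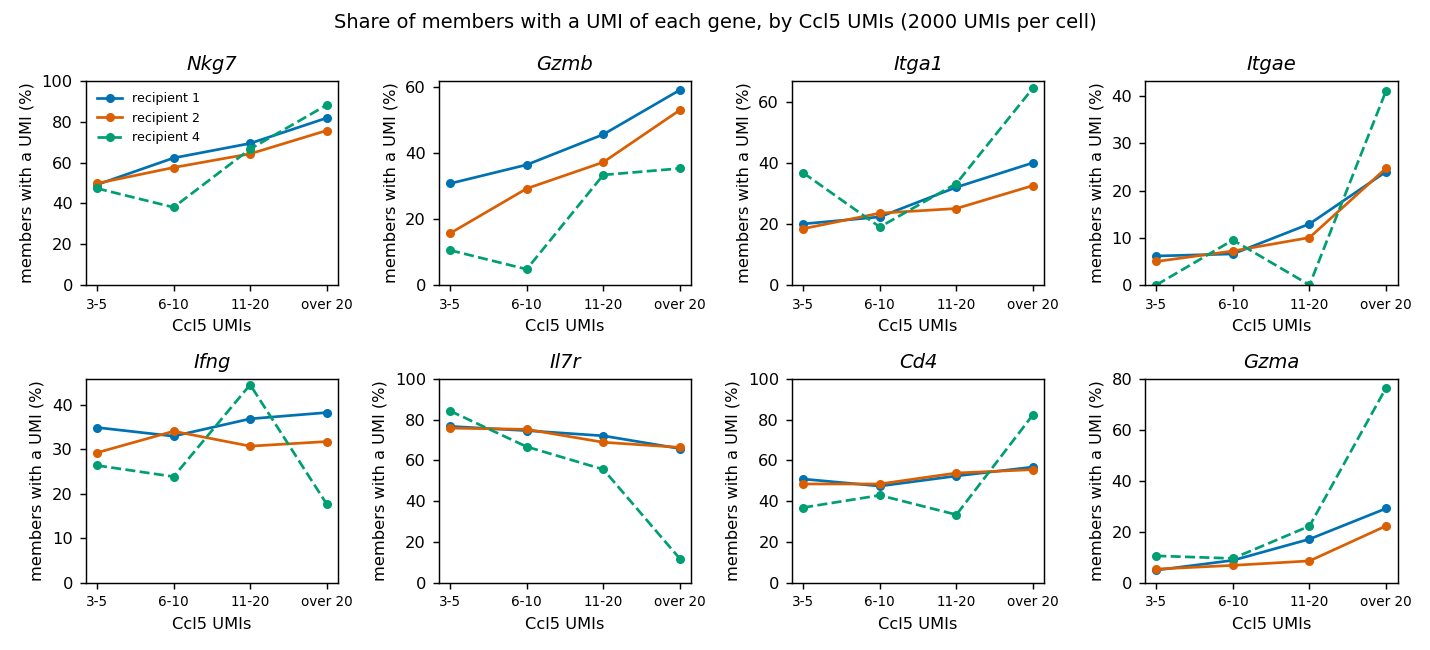
Share of members (%) that hold a UMI of each of 8 genes after thinning to 2000 UMIs, by the number of Ccl5 UMIs in the cell; each line is a recipient, dashed for recipient 4. In recipients 1 and 2, Nkg7, Gzmb, Gzma and Itgae lie higher in cells with more Ccl5, while Ifng shows no order.

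The second comparison lies between donors. Of the members 273 were CD45.1, 1636 CD45.2 and 40 had no donor call. In recipient 1 members made up 14.8% of CD45.1 cells (109 of 736, exact 95% interval 12.3% to 17.6%) and 9.57% of CD45.2 cells (804 of 8398, 8.95% to 10.2%). In recipient 2 they made up 18.3% (156 of 851, 15.8% to 21.1%) and 9.43% (773 of 8198, 8.80% to 10.1%). In recipient 4 they made up 7.84% (8 of 102, 3.45% to 14.9%) and 4.58% (59 of 1289, 3.50% to 5.86%), with intervals that overlap. The means were 13.7% ± 5.34 for CD45.1 and 7.86% ± 2.84 for CD45.2 (SD, n = 3). The mean log2 odds ratio was -0.88 (SD 0.20), lower in CD45.2 cells of 3 of 3 recipients. With 3 pairs an exact sign-flip permutation test, two-sided, gave p = 0.25, the smallest it can give. Intervals cover counting error only. The definition removes cells with at least 3 Il17a UMIs, and this removal need not act alike on both donors. Among the other barcodes of recipients 1 and 2, Il17a was higher in CD45.2 cells (1.40, SE 0.12, edgeR adjusted p = 8.77e-05). The part of this in the lower share of CD45.2 members was not tested.

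**Figure D3:**
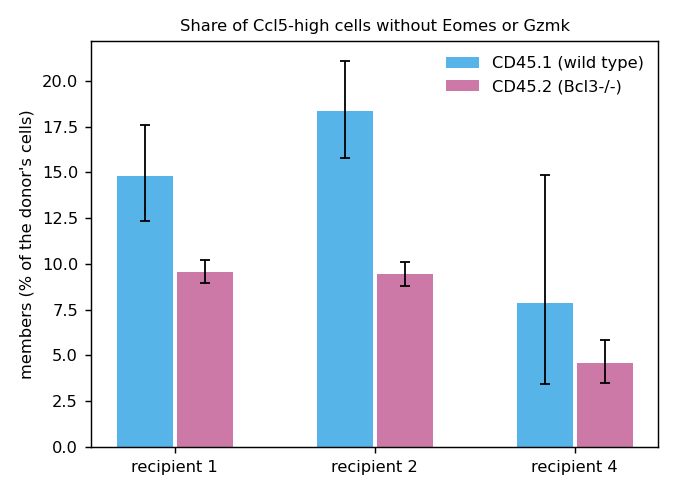
Members as a percentage of the cells of each donor, by recipient; bars start at 0 and error bars are exact 95% binomial intervals. The CD45.1 bar is higher in all 3 recipients, and the intervals overlap in recipient 4.

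Gene levels were compared between the donors inside the population, in recipients 1 and 2, because recipient 4 had 8 CD45.1 members and 10 were required. With 2 recipients there is 1 residual degree of freedom, and edgeR took the spread from all genes together. The SEs and p-values of this test, however small, therefore do not measure a gene's own spread between the 2 animals. Of 9576 genes, 227 rose in CD45.2 members and 228 fell, or 4.75%, with 2.37% upward and 2.38% downward. Values are given for recipients 1 and 2 and, outside the test, for recipient 4. Bcl3, the targeted gene, was not lower but higher in the cells labelled Bcl3-/-: 64.1, 67.3 and 67.5 CPM in CD45.2 members against 17.6, 20.4 and 0 CPM in CD45.1 members (1.70, SE 0.23, edgeR adjusted p = 3.95e-11). Which part of the gene was altered is not stated in the labels, and 3′ tags that lie outside it check nothing, so that the reading settles the genotype of neither donor. All directions below are therefore those of the tags. Whether a difference is larger or smaller in members than in the other barcodes is a separate test, given last. It called 2 genes, so the differences below are not shown to be special to members.

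**Figure D4:**
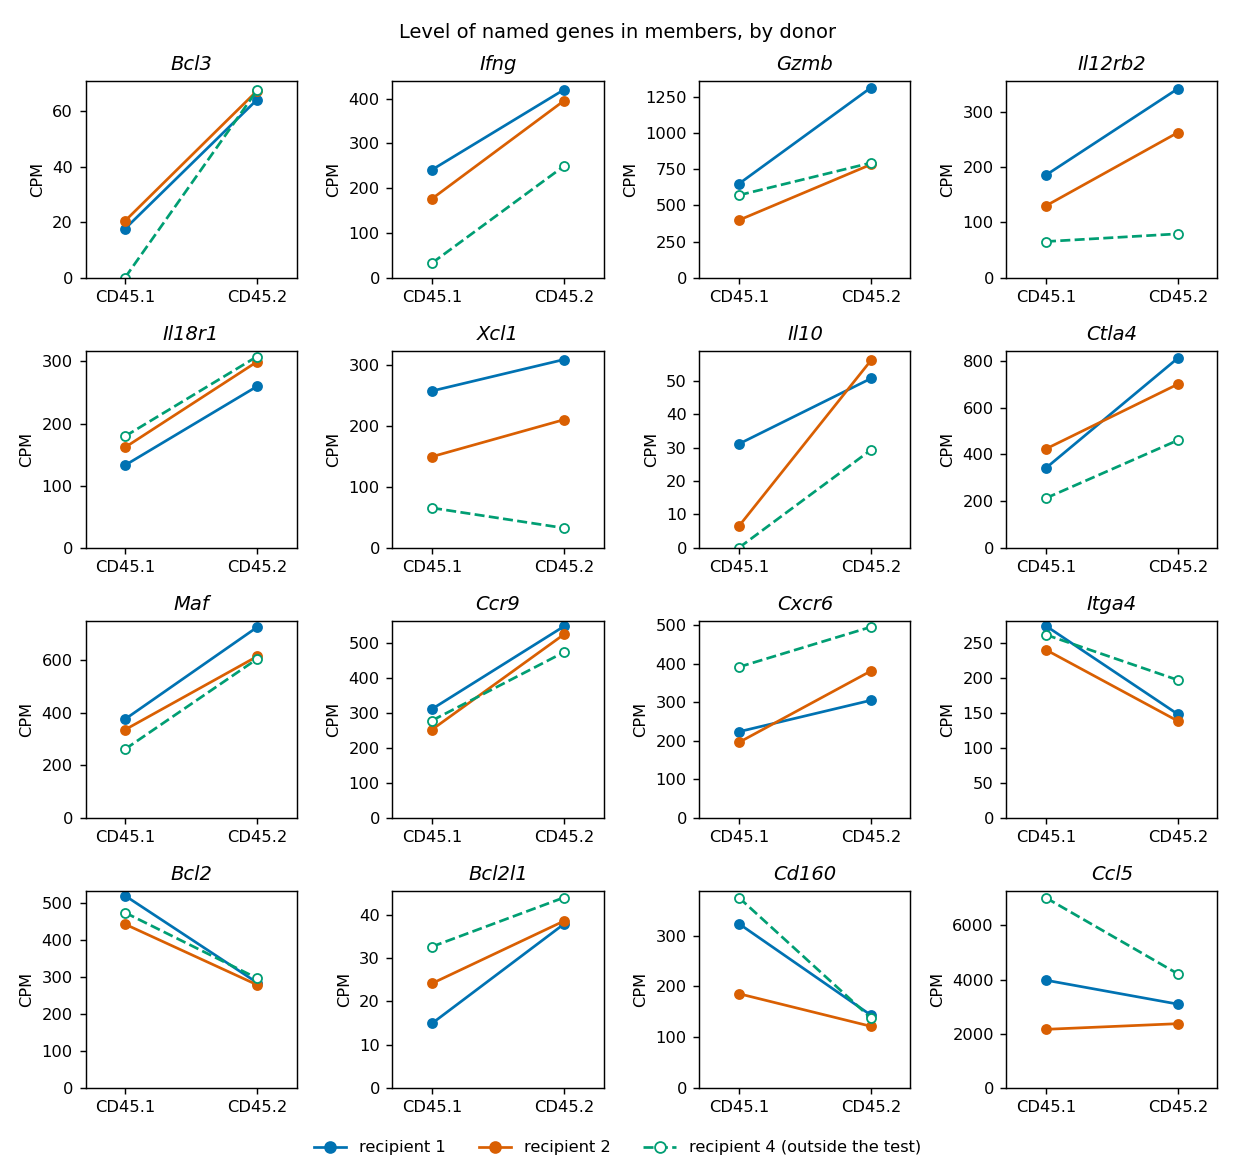
CPM of 16 genes in CD45.1 and CD45.2 members, with y axes from 0; lines join the donors of a recipient and recipient 4, with 8 CD45.1 members, is dashed and was not tested. Ifng, Gzmb, Il12rb2 and Il18r1 rise from CD45.1 to CD45.2 and Bcl2, Itga4 and Cd160 fall, while Xcl1 did not pass the test; Ccl5, on which members were chosen, is shown as a description.

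Ifng and the receptor chains Il12rb2 and Il18r1 were higher in CD45.2 members. Ifng was at 420 and 395 CPM in CD45.2 members against 241 and 176 CPM in CD45.1 members of recipients 1 and 2, and at 249 against 32.6 CPM in recipient 4. It rose by 0.91 (SE 0.09, edgeR adjusted p = 1.34e-19). Il12rb2 was at 342, 263 and 79.2 CPM against 186, 130 and 65.3 CPM (0.87, SE 0.10, edgeR adjusted p = 2.50e-14), and Il18r1 at 260, 299 and 308 CPM against 133, 162 and 180 CPM (0.85, SE 0.11, edgeR adjusted p = 5.35e-13). Of 17 Th1 regulators and receptors 5 rose and 0 fell, with a median of 0.10. Tbx21 itself was at 46.5 and 29.5 CPM against 50.1 and 39.0 CPM and did not pass (-0.33, SE 0.21). Of 11 effector cytokines 4 rose and 1 fell, with a median of 0.04. Tnf rose by 0.81 (SE 0.22) and Il10 by 1.60 (SE 0.26), the latter from 31.2 and 6.5 to 50.8 and 56.2 CPM with most of the difference in recipient 2. The Csf2 call rests on few cells, since 1 cell held 39.1% of its CD45.2 UMIs in recipient 1. Ccl20 is not read as a change, since 1 cell held 75.6% and 58.7% of its CD45.2 UMIs in recipients 1 and 2.

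Of 13 granule genes 1 rose and 2 fell. Gzmb rose, at 1316, 784 and 795 CPM in CD45.2 members against 650, 398 and 571 CPM in CD45.1 members (0.92, SE 0.06, edgeR adjusted p = 5.22e-42). Nkg7 was lower, at 685, 585 and 774 CPM against 1098, 824 and 898 CPM (-0.66, SE 0.06, edgeR adjusted p = 2.89e-23). NK-type receptors had 0 of 7 genes up and 4 down. Cd160 was at 143, 121 and 138 CPM against 324, 186 and 375 CPM (-0.98, SE 0.10, edgeR adjusted p = 8.44e-18). Klrd1 was at 11.8, 6.15 and 46.9 CPM against 40.6, 13.9 and 294 CPM (-1.62, SE 0.34), and Slamf7 fell by 0.59 on the log2 scale (SE 0.14). Xcl1 (0.30, SE 0.10, edgeR adjusted p = 0.0639) and Itga1 (-0.18, SE 0.11) did not pass. Ccl5 is part of the definition, so that only its level is given: the median per cell was 22, 10 and 6.5 UMIs in CD45.1 members and 9, 8 and 9 in CD45.2 members of recipients 1, 2 and 4.

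Of 15 homing genes 6 rose in CD45.2 members and 1 fell. Ccr9 was at 546, 523 and 472 CPM against 310, 252 and 277 CPM (0.87, SE 0.08, edgeR adjusted p = 2.12e-22). Cxcr6 rose by 0.65 (SE 0.10) and Gpr55 by 1.33 (SE 0.18). Itga4 fell, at 148, 138 and 197 CPM against 274, 240 and 261 CPM (-0.91, SE 0.10, edgeR adjusted p = 4.22e-16). Th17-type genes that the definition had not removed were higher, 7 of 9 up and 0 down. Maf, a factor of interleukin-10 and interleukin-17 production, was at 725, 614 and 604 CPM against 375, 335 and 261 CPM (0.84, SE 0.08, edgeR adjusted p = 2.17e-25). Of 8 Treg genes 4 rose and 0 fell, among them Ctla4, an inhibitory receptor (0.89, SE 0.07). Ikzf2, the gene of Helios, was at 137 and 150 CPM against 56.9 and 34.4 CPM (1.64, SE 0.16), but at 167 against 294 CPM in recipient 4, where 1 cell held 88.9% of the CD45.1 UMIs.

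The survival genes Bcl2 and Bcl2l1 differed in opposite directions. Bcl2 was at 284, 278 and 296 CPM in CD45.2 members against 519, 442 and 473 CPM in CD45.1 members, with no overlap (-0.84, SE 0.08, edgeR adjusted p = 2.68e-21). Bcl2l1, which encodes the related survival protein BCL-XL, was at 37.9, 38.6 and 44.0 CPM against 14.9, 24.1 and 32.6 CPM (0.85, SE 0.26, edgeR adjusted p = 0.0250). In the NF-kB list Bcl3 was the 1 gene of 15 that rose and Nfkbid, the gene of the related nuclear protein IkBNS, the 1 that fell, at 41.8 and 35.9 against 52.8 and 77.1 CPM (-0.85, SE 0.19). Socs1, a brake on interferon signalling, fell by 0.70 on the log2 scale (SE 0.13). Of 9 proliferation genes 4 rose, from few cells: Mki67 was held by 4 and 17 CD45.1 members and by 63 and 75 CD45.2 members of recipients 1 and 2. With at least 5 Ccl5 UMIs required and no Il17a, Il17f or Il22 allowed, the difference of Mki67 was 0.65 (edgeR adjusted p = 0.408). Of 10 stress genes 5 fell, all of them heat shock genes, and 0 rose, Hspa8 falling by 0.40 on the log2 scale (SE 0.05), and their part in the other differences was not tested.

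Outside the lists, the clone-named AC163354.1 rose most among the genes named by rank, at 113 and 140 against 21.7 and 27.9 CPM in recipients 1 and 2 (2.28, SE 0.19, edgeR adjusted p = 6.36e-31). Cpd, a carboxypeptidase, rose by 1.34 (SE 0.16) and Rrad, a small GTPase, by 1.33 (SE 0.15). Lmo4, a LIM-domain cofactor, was at 124, 139 and 226 CPM in CD45.2 members against 46.1, 39.9 and 163 CPM (1.56, SE 0.16, edgeR adjusted p = 4.70e-19). Furin, a proprotein convertase, was at 358, 463 and 414 CPM against 134, 195 and 97.9 CPM (1.24, SE 0.10). Tnfsf8 rose by 1.11 (SE 0.18) and Pou2f2, a lymphoid transcription factor, by 0.94 (SE 0.16). Cd7, a T cell surface protein, fell by 1.11 on the log2 scale (SE 0.15) and Rps13, a ribosomal protein gene, by 0.74 (SE 0.04). Linkage to the congenic marker is a limit of its own: within 10 Mb of Ptprc, the gene of CD45 on chromosome 1, 63 genes were tested and 7 rose and 2 fell, among them Il10. Outside this window 9513 genes were tested and 220 rose and 226 fell, so that calls were more frequent within it.

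Of the 455 genes called between donors, 77 were also called by DESeq2 and 220 with the 8 CD45.1 members of recipient 4 added. Markers of other cells moved as well: 2 of 5 B and plasma cell genes and 2 of 3 myeloid genes rose in CD45.2 members, Igha with 1 cell that held 99.0% of its CD45.2 UMIs in recipient 1, and 1 of 5 gamma-delta T cell genes rose and 2 fell. B and plasma cell genes summed to 425, 135 and 26.9 CPM over all members of recipients 1, 2 and 4, and myeloid genes to 133, 193 and 188 CPM. With the barcodes that held Cd8a, Trdc or the other markers named above left out, 437 genes were called, 406 of them among the 455. In the fit with recipient 4, 35 genes passed without recipient 1 and 49 without recipient 2. In both of these Il12rb2 (0.89, adjusted p = 0.0830; 0.77, adjusted p = 0.107), Nkg7 (-0.46, adjusted p = 0.393; -0.56, adjusted p = 0.0843) and Ikzf2 (1.21, adjusted p = 0.999; 0.58, adjusted p = 0.788) did not pass, nor did Tnf, Slamf7, Cxcr6, Nfkbid, Bcl2l1, Socs1 and Hspa8. Without recipient 1 the calls of Il18r1 (0.80, edgeR adjusted p = 0.0640), Cd160 (-0.89, adjusted p = 0.0530), Itga4 (-0.77, adjusted p = 0.0830), Gpr55 (1.19, adjusted p = 0.0830), Pou2f2 (1.18, adjusted p = 0.0524) and Ctla4 (0.74, adjusted p = 0.0516) were lost, and without recipient 2 those of Il10 (0.76, adjusted p = 0.9998) and Mki67 (2.14, adjusted p = 0.0715). With recipient 4 added and none left out, Cd7 (-1.49, edgeR adjusted p = 0.357), Ikzf2 (1.35, adjusted p = 0.520) and Bcl2l1 (0.83, adjusted p = 0.0736) were lost. Of 84 called genes from the lists and top ranks, 9 were called in every alternative run that gave them an adjusted p. These were Bcl3, Ifng, Ccr9, Maf, Lmo4, Tnfsf8 and the clone-named AC163354.1 upward, Bcl2 and Rps13 downward. Not every run judged every gene: of the 84, DESeq2 kept 20 calls, lost 13 and gave the rest no adjusted p.

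Whether these donor differences belong to the members was tested as the donor difference in members minus that in all other barcodes of recipients 1 and 2. Among the others, 610 of 12701 genes rose in CD45.2 cells and 526 fell, or 8.94%, with 4.8% upward and 4.14% downward. The test of the difference called 2 of 10669 genes (0.0187%), both higher and 0 (0.0%) lower, and 839 had an unadjusted p under 0.05. This fit had 3 residual degrees of freedom, since it took the 4 sums of an animal as separate beyond the recipient block. Only 2 animals stand behind them, so its SEs and p-values do not fully measure the spread between animals. Gzmb had nearly equal donor differences, 0.92 (SE 0.06) in members and 0.98 (SE 0.12) in the others (difference -0.01, SE 0.55). The donor difference of Bcl2 was -0.84 in members and -1.88 in the others, a difference of 1.04 (SE 0.18, edgeR adjusted p = 0.188). Xcl1 was at 257 and 149 CPM in CD45.1 members and 309 and 210 CPM in CD45.2 members, while in the other barcodes it was at 54.98 and 49.0 CPM in CD45.1 and 24.9 and 17.7 CPM in CD45.2 cells. Its donor difference was 0.30 (SE 0.10) in members and -1.43 (SE 0.12) in the others, a difference of 1.73 (SE 0.15, edgeR adjusted p = 0.000478). Ms4a4b, a membrane protein of T cells, was lower in CD45.2 cells of both, with -0.49 (SE 0.06) in members and -1.45 (SE 0.09) in the others (difference 0.96, SE 0.11, edgeR adjusted p = 0.00474). The other barcodes mix all remaining CD4 cells, including those with Eomes or Gzmk, and Ccl5 too was lower in their CD45.2 cells, at 220 and 215 CPM against 812 and 757 CPM. The part of this mixture in the Xcl1 result was not tested. With the definition applied to thinned counts, at 2 or more Ccl5 UMIs and so with partly other members, the difference for Xcl1 was 0.90 (edgeR adjusted p = 0.887). With recipient 4 added it was 1.497 (adjusted p = 0.601), while Ms4a4b was at 0.82 (adjusted p = 0.0272) and 0.84 (adjusted p = 0.374) in these 2 runs.

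**Figure D5:**
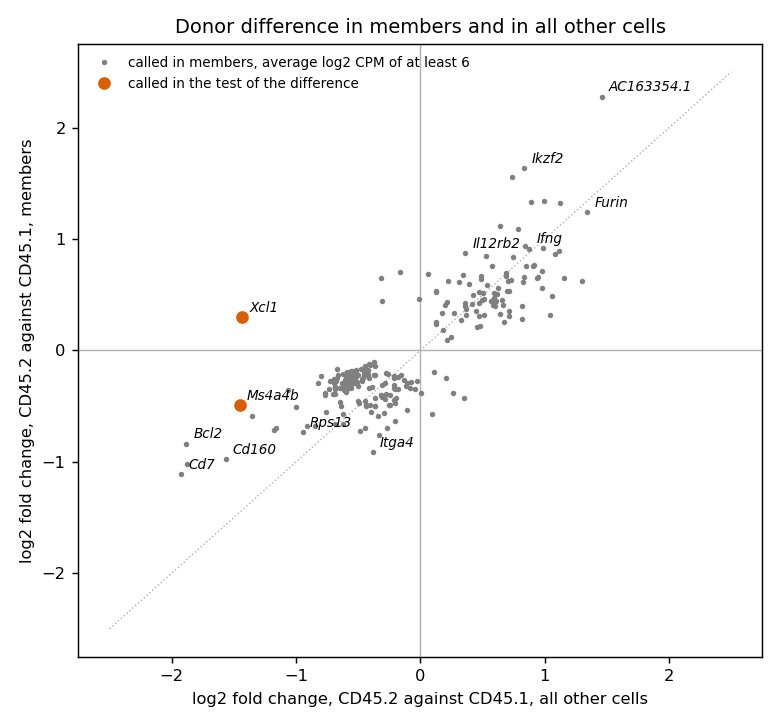
Log2 fold change of CD45.2 against CD45.1 in members (y axis) and in all other cells (x axis), for genes called in members with a mean level of 6 or more in log2 CPM, and for Xcl1 and Ms4a4b (orange), which passed the test of the difference; the dotted line marks equal values. Xcl1 lies at -1.43 in the others and 0.30 in members, off the line along which Ifng and Il12rb2 lie closer.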

How the data were processed

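The deposited matrices hold whole-number UMI counts per gene, antibody tag and barcode, per the file headers, made by the authors with Cell Ranger 6.1.1 on mm10, per the submitters' processing notes. Which annotation was counted, and how barcodes were filtered first, is not stated in the labels. RNA came from 10x Genomics 3′ libraries, per the labels' protocols, and 3 of 4 libraries were used. No doublet caller was run, and an alternative drops barcodes with more than 3 times the median UMIs.

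The members and gene lists were chosen with earlier results of these data known. UMIs were summed per recipient, population and donor, to between 48643 and 53145578 UMIs per sum, and tested in edgeR 4.0.16 (R 4.3.3) with the quasi-likelihood test, TMM scaling, filterByExpr, a block for each recipient and Benjamini-Hochberg adjustment, called under 0.05. CPM values are UMIs per 1000000 of each sum. An SE is the absolute log2 difference divided by the square root of the F statistic of the edgeR test. Both arms come from the same animal and library, which makes the pairs. Deviations correlated within recipients at 0.214, 0.272 and 0.210 (members against others). Replicates are separate animals. The donor test used 2 recipients where 3 were planned. Genes were named from 27 lists and as the 10 highest and lowest log2 changes with an adjusted p under 0.05, an average log2 CPM of at least 5 (6 between donors) and the same direction in every recipient. Not every gene so named is described. On simulated counts for members against others, 77% of genes changed by a log2 of 1 and 95% of those changed by 2 were recovered, and 58% and 89% for the donor test. Calls among unchanged genes were 3 and 10. The simulation gave every gene the same dispersion and each recipient a shift common to both arms. Genes whose difference varies between animals were not simulated, so these shares do not carry over to them. Alternatives were DESeq2 1.42.0 and the settings named in the closing section. Values of 2 genes are not reported here.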

Additional observations from a re-analysis of the deposited data

Results flagged for a closer look

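Xcl1 was flagged because its donor difference differed between members and the other cells in the test of the difference itself, by 1.735 on the log2 scale (edgeR adjusted p = 0.000478). The donor difference was 0.30 in members and -1.43 in the others. Only 2 animals stand behind this test. With the rule applied to thinned counts, at 2 or more Ccl5 UMIs, the difference was 0.90 (edgeR adjusted p = 0.887). With the 8 CD45.1 members of recipient 4 added it was 1.497 (adjusted p = 0.601). DESeq2 gave 1.73 (adjusted p = 2.02e-12).

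Ms4a4b was flagged for the same reason, with a difference of 0.9614 (edgeR adjusted p = 0.00474), the gene being lower in CD45.2 cells of both populations and less so in members. With recipient 4 added it was 0.84 (adjusted p = 0.374).

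Recipient 3, which was left out of every comparison, held 42 barcodes that met the definition of a member, 1.16% of its 3626 barcodes, of which 3 were CD45.1 and 38 CD45.2. Their median depth was 9190 UMIs. These values were flagged because they come from a library outside the comparisons.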

How the results depend on the processing

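DESeq2 gave 1085 (members against others), 21 (against cells with Eomes or Gzmk), 766 (against Ccl5-low cells), 77 (donors in members), 595 (donors in others) and 11 (difference of donor differences). Without the replicate block, which the shared animal calls for, these were 738, 15, 512, 46, 299 and 0, the last with 617 genes at an unadjusted p under 0.05. The share of members gave the same log2 odds ratio of -0.88 without pairing, with an exact permutation p of 0.3. Without 1 replicate, members against others gave 815 to 3379 genes, against cells with Eomes or Gzmk 36 to 307, against Ccl5-low cells 653 to 1612, and the log2 odds ratio -0.97 to -0.77. Leaving a recipient out of the 2-recipient donor tests leaves no residual degree of freedom, so that it was run only with a minimum of 5 members per donor, chosen after seeing the data: 35 and 49 genes. With that minimum alone the donor test in members gave 221 and the difference of donor differences 4. Recipient 3 added gave 855 genes (members against others) and moved the log2 odds ratio to -1.50. Without a filter on low counts the donors in others gave 1772 and the difference of differences 111. A stricter gate, also chosen after seeing the data (Ccl5 of at least 5, no Il17a, Il17f or Il22), gave 239 and 4. With barcodes holding markers of other cells left out, chosen likewise, the counts were 2327, 162, 1655 and 437.

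Direction reversed for a few genes: Trdc (-0.0347) and Cdk1 (-0.0857) with the thinned rule, Cd3g with recipient 3 added (-0.0134), Stmn1 with the stricter gate (-0.47), Ccl20 among the others with at least 5 members (-0.0178), and, in the fits with at least 5 members, Cd8a (-0.25 with all 3 recipients, -1.47 without recipient 1, -0.34 without recipient 2), Ifi47 (0.0335) and Fosb (-0.11) without recipient 1, and Ltb (0.0282) without recipient 2. The cause was not tested. CD45.1 members, 109 and 156 cells, limit the donor test.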
